A study of Mus musculus with 2 samples.

Results

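The imprinted growth genes described here are Igf2, H19, Igf2r, Dlk1, Meg3, Peg3, Mest, Cdkn1c, Grb10 and Plagl1, taken by gene symbol, with each symbol matched to its Ensembl identifier. They are 10 of the 42422 gene identifiers in the count table, and all 10 passed the filter on low counts that left 15125 genes for testing. No measured value entered the rule that names them, but they were chosen with earlier results of these data known. They were followed in somatic cells of the mouse foetal gonad over 10 groups of 4 libraries each, 40 libraries in all.

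A gene is imprinted when 1 of its parental copies is silenced by DNA methylation or a neighbouring non-coding RNA that was set up in the germ line of a parent, so that the RNA comes mainly from the copy of the other parent. Several imprinted genes act on foetal growth in opposite directions, and many sit in shared domains under a common control region. Of those followed here, Igf2, Dlk1, Peg3, Mest and Plagl1 are expressed from the paternal copy, and H19, Igf2r, Meg3, Cdkn1c and Grb10 mainly from the maternal copy. The counts do not separate the parental copies, so what follows is about total RNA and not about imprinting as such.

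Gonads at E12.5 came from matings of inbred 129T2svJ males that carry the Oct4-eGFP transgene with Swiss females, and XX and XY gonads were told apart by the cords of the testis. They were sorted at once (0 h) or cultured for 24 h or 72 h. The vehicle DMSO was given to XX and XY gonads, and XY gonads alone also received 500 nM BGJ398, an inhibitor of the FGF receptors (FGFRi), or 500 nM PD0325901, an inhibitor of the kinase MEK (MEKi). The cells sequenced were negative for GFP, which Oct4-eGFP drives in germ cells, and each library held cells pooled from several gonads. The groups were therefore XX 0 h, XY 0 h, XX 24 h DMSO, XY 24 h DMSO, XY 24 h FGFRi, XY 24 h MEKi, XX 72 h DMSO, XY 72 h DMSO, XY 72 h FGFRi and XY 72 h MEKi. Nothing in the labels ties the libraries of a group to separate litters, so the p-values measure the spread between these pooled samples, which may be partly technical. As in any bulk sample, fewer cells of a type and less RNA per cell cannot be told apart.

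Library totals ran from 1380707 to 4836550 counts of unique molecular identifiers (UMIs), and those of XY 24 h DMSO were the highest of any group at 2605556 to 4836550. Xist was counted 1090 to 2427 times in each of the 12 XX libraries and 0 to 14 times in each of the 28 XY libraries, which matched every label of sex. The libraries were made in 2 sets: the 0 h groups, both 24 h DMSO groups and XY 24 h MEKi in one, XY 24 h FGFRi and all 72 h groups in the other. Any comparison of a group of one set with a group of the other, the ranges and orders over all 10 groups included, cannot be told apart from the set. Levels are in CPM, the counts of a gene scaled to the effective total of its library, and are given as mean ± SD of 4 libraries. A gene was called when its adjusted p in edgeR's quasi-likelihood test (Benjamini-Hochberg over all genes tested) was under 0.05 and its fold change at least 1.5, which is why a difference under that fold is given below as a value and not as a call.

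The letters before the starts of these genes are shown first for 4 of them, because CG pairs, here in capitals, are where DNA methylation sits and because these genes carried the sex differences described below. Methylation itself was not measured. The windows are RefSeq promoters of 300 bases (250 before and 50 after the start, assembly GRCm38.p6), read 5′ to 3′ on the gene's strand: chr12:109452573-109452872 on the plus strand for Dlk1, chr12:109540746-109541045 on the plus strand for Meg3, chr10:13090582-13090881 on the plus strand for Plagl1 and chr7:6730370-6730669 on the minus strand for Peg3.
Dlk1: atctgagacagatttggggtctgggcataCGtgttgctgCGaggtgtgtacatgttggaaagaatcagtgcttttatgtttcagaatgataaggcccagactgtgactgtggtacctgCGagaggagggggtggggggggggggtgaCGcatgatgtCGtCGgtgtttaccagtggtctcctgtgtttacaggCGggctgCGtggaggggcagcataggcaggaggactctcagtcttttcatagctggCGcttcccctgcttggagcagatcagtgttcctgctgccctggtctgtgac
Meg3: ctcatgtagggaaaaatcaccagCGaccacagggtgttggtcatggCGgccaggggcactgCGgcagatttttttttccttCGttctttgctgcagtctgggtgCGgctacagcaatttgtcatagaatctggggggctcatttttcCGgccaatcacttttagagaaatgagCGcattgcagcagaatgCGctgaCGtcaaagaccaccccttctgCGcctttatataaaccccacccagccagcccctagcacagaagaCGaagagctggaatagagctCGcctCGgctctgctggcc
Plagl1: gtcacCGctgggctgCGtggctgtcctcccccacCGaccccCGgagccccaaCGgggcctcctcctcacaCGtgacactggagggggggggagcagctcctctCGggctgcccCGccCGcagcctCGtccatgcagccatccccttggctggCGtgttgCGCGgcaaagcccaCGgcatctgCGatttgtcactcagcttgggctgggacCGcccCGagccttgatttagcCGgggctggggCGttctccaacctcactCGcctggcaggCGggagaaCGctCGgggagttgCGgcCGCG
Peg3: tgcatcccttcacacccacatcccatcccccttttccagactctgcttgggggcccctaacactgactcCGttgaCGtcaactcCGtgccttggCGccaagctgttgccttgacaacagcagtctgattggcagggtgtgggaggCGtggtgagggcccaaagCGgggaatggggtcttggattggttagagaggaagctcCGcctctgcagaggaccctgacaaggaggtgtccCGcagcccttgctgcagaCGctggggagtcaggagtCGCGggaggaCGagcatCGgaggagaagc
The Plagl1 window held 26 CG pairs, the Meg3 and Peg3 windows shown 13 each and the Dlk1 window 9, while the second Meg3 window held 1, against a median of 7 over all 32851 windows of the table. The window of Igf2r, a gene with no call in any comparison, held 34, and the first window of Grb10 held 45. RefSeq windows were found for 8 of the 10 genes (15 windows, since Igf2, Meg3, Mest and Grb10 have several starts), and H19 and Cdkn1c are named only.

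Letters of 5 transcription factor motifs were searched on both strands of those 15 windows. The SP1 box GGGCGGGG stood in 4 of them, at position -85 from the start in the fourth Igf2 window, -31 in Igf2r, -27 in the first Grb10 window and -140 in Plagl1, and it stood in 17.6% of all windows of the table. None of the 15 held the AP-1 letters TGANTCA, the ETS letters CCGGAAG, the NR5A1 letters CAAGGTCA or the GATA letters AGATAA, which occurred in 7.81%, 8.86%, 1.56% and 11.2% of all windows. A match describes letters only, and a missing match says no more than that those letters are not in the window.

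The 10 genes differed widely in how far their levels moved over the 10 groups. The highest group mean was 8.36 times the lowest for Dlk1, 6.03 times for Cdkn1c, 5.80 times for Plagl1 and 5.48 times for Igf2. It was 3.14 times for Meg3, 2.44 times for Mest, 2.25 times for Peg3, 2.06 times for Grb10, 1.91 times for H19 and 1.37 times for Igf2r. For Igf2 and Dlk1 these ratios rest on few counts, 0 to 42 per library for Igf2 and 0 to 35 for Dlk1. H19 lay at the other end with 1989 to 5287 counts per library, followed by Peg3 with 1362 to 5197 and Cdkn1c with 656 to 5141.

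**Figure D1:**
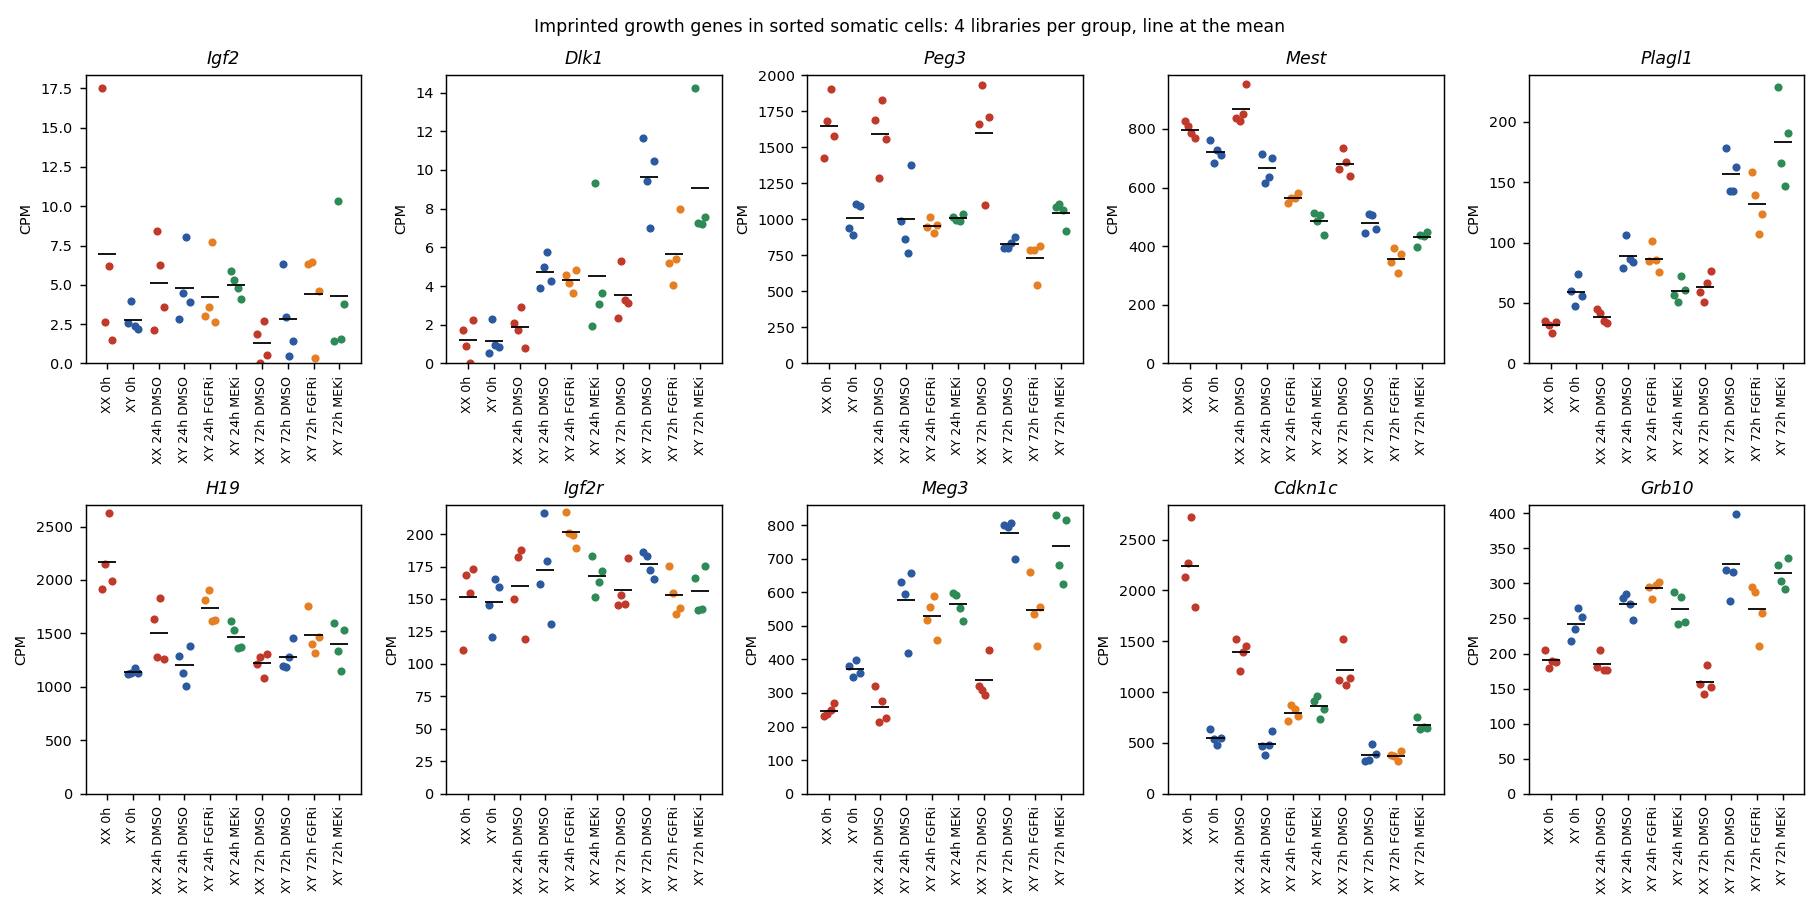
Level of each gene in CPM (linear axis from 0, one scale per panel) in every library, with 4 points and a line at the mean for each of the 10 groups, XX in red, XY untreated or DMSO in blue, FGFRi in orange and MEKi in green. Cdkn1c shows XX points at 1070.1 CPM or above and XY points at 958.5 CPM or below at every time, while the Igf2 points of neighbouring groups overlap throughout.

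Counts of single genes appeared to have an upper limit, and the most abundant of these genes lay nearest to it. In no library did any gene exceed 9811 counts, whatever the total, and the highest count of a library was never under 7268. H19 reached up to 58.1% of the highest count of its own library, Cdkn1c 57.6%, Peg3 53.6%, Mest 34.5% and Meg3 25.0%. Within groups, a count that follows depth rises with a slope of 1 in log2 count on log2 library total. The slope was 0.68 for H19, 0.70 for Peg3, 0.74 for Cdkn1c and 0.77 for Meg3, so the CPM of these 4 was lower in deeper libraries. It was 1.03 for Mest, 1.12 for Igf2r, 1.18 for Grb10, 1.24 for Dlk1, 1.26 for Plagl1 and 1.49 for Igf2. Over all tested genes the median slope fell with abundance in the same way, from 1.15 for the 7733 genes with a mean count of 10 to 100 to 0.75 for the 59 genes of 2000 to 4000 and 0.49 for the 14 genes of 4000 to 10000. Differences named below of H19, Peg3, Cdkn1c and Meg3 against XY 24 h DMSO, the deepest group, are therefore also given from a fit with the log2 library total as a term, which was added after the data were seen. That term cannot correct a limit on a gene's own count, which could also reduce fold changes between groups of like depth. Whether it did so was not tested.

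**Figure D2:**
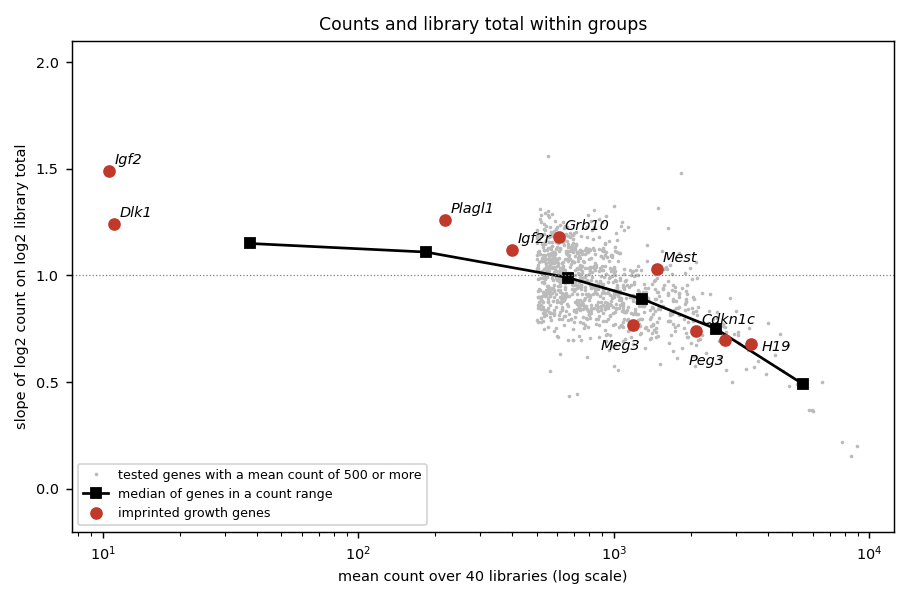
Slope of log2 count on log2 library total within groups (vertical axis) against the mean count over 40 libraries (horizontal log axis), with the 10 genes in red, single genes of a mean count of 500 or more in grey and medians of count ranges as black squares. H19, Peg3, Cdkn1c and Meg3 lie at slopes of 0.68 to 0.77, under the line at 1, and the other genes at 1.03 to 1.49.

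XX against XY was the comparison in which most of these genes differed. At 0 h, 5 of the 10 were called, 3 higher and 2 lower in XX (background: 17.3% of the 15125 tested genes were called), and the median log2 fold change of the 10 was 0.22 against -0.01 over all genes. After 24 h with DMSO 5 were called, 2 higher and 3 lower (background 19.6%, median -0.03 against -0.01). After 72 h with DMSO 6 were called, 2 higher and 4 lower (background 20.3%, median -0.60 against -0.01). Cdkn1c and Peg3 were higher in XX at all 3 times, Meg3 and Plagl1 lower at all 3, Dlk1 lower at 24 h and 72 h, Grb10 lower at 72 h and H19 higher at 0 h. The direction did not follow the parental copy that is expressed, since each sign held genes of both kinds.

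**Figure D3:**
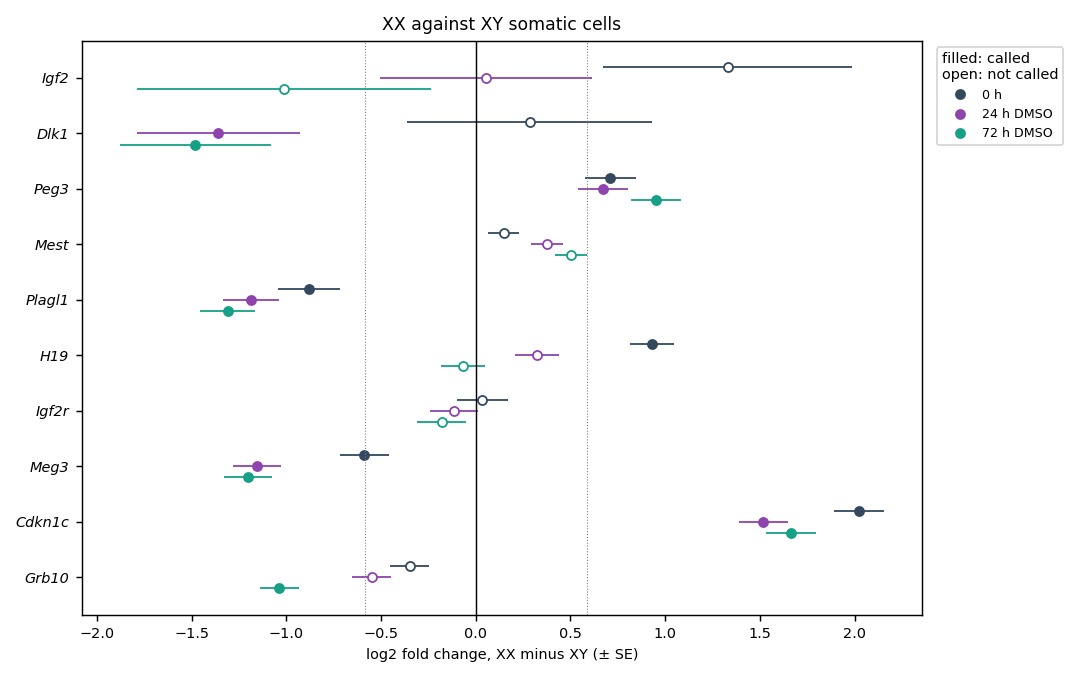
Log2 fold change of XX over XY (horizontal axis, bars ± SE) for the 10 genes at 0 h, 24 h DMSO and 72 h DMSO, filled where called and open where not, with dotted lines at a fold change of 1.5. Cdkn1c and Peg3 lie to the right at all 3 times, Plagl1 and Meg3 to the left, and H19 moves from 0.93 at 0 h to -0.07 at 72 h.

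Igf2, the foetal insulin-like growth factor (GRCm39 chr7:142204503-142220694, minus strand, protein coding), had very low counts in every group. The 4 XX 0 h libraries held 41, 6, 8 and 4 counts and the 4 XY 0 h libraries 5, 7, 5 and 5. After 72 h with DMSO, XX held 4, 0, 9 and 1 and XY 19, 6, 1 and 3. The groups overlapped at both times, and a single XX library made most of the 0 h difference of 1.33 ± 0.66 (log2 fold change ± SE, edgeR adjusted p = 0.149). No comparison called Igf2, and at this depth only a large change could have been seen: the 95% interval of the 24 h difference ran from -1.04 to 1.15. Of the 6162 exon bases annotated to Igf2, 3599 (58.4%) lie on the same strand in exons of a second annotated gene, Gm49394, which was listed at 0 in all 40 libraries. Whether that overlap took part in the low counts was not tested.

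Dlk1, a transmembrane ligand-like protein of the Notch family that marks immature cells (chr12:109418749-109429262, plus strand, protein coding), was also rare, but its level differed between the groups. In XY libraries it was counted 1, 4, 2 and 2 times at 0 h, 11, 20, 30 and 11 times at 24 h with DMSO and 35, 19, 14 and 22 times at 72 h with DMSO. In XX libraries it was counted 4, 2, 0 and 6 times, then 6, 7, 6 and 2 times, then 5, 9, 11 and 6 times. In CPM the XX and XY libraries overlapped at 0 h and not at 24 h or 72 h. The 24 h level was 1.88 ± 0.88 CPM in XX and 4.73 ± 0.81 CPM in XY (log2 fold change -1.36 ± 0.43, edgeR adjusted p = 0.0133), and the 72 h level 3.52 ± 1.27 and 9.64 ± 1.99 CPM (-1.48 ± 0.40, edgeR adjusted p = 0.00311). Without the XX 24 h library F9, which held 2 counts, the 24 h difference was -1.15 with an edgeR adjusted p of 0.0588 and was no longer called. When the fold threshold entered the test, limma's voom with treat called neither (adjusted p = 0.379 at 24 h and 0.0853 at 72 h), while edgeR's glmTreat lost the 24 h call (adjusted p = 0.0935) and kept that of 72 h (adjusted p = 0.0382).

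Peg3, a zinc finger protein (chr7:6706882-6733468, minus strand, protein coding), was higher in XX at every time. At 0 h the XX libraries stood at 1428.6, 1685.5, 1902.7 and 1579.7 CPM and the XY libraries at 943.3, 890.4, 1103.8 and 1090.0 CPM. At 72 h with DMSO they stood at 1664.0, 1936.7, 1096.9 and 1714.1 CPM in XX and 798.3, 798.3, 837.8 and 879.0 CPM in XY. The groups did not overlap at either time. At 24 h they did, since XY library M5 at 1375.7 CPM lay above XX library F5 at 1286.5 CPM. The log2 fold changes were 0.71 ± 0.13 at 0 h, 0.67 ± 0.13 at 24 h and 0.95 ± 0.13 at 72 h, with edgeR adjusted p-values of 3.21e-05, 6.16e-05 and 9.09e-08. The 24 h call was near the fold threshold: it was 0.58 without XX library F6, 0.55 without XY library M4 and 0.57 with the depth term, none of them called.

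Mest, a paternally expressed gene of mesoderm with an alpha/beta hydrolase fold (chr6:30723546-30752058, plus strand, protein coding), differed between XX and XY by less than 1.5-fold. Its mean in XX exceeded that in XY by 0.15 ± 0.08 on the log2 scale at 0 h, 0.38 ± 0.08 at 24 h and 0.50 ± 0.08 at 72 h, with edgeR adjusted p-values of 0.225, 0.000309 and 3.68e-06. The libraries did not overlap at any of the 3 times: at 72 h, XX stood at 638.5 to 735.9 CPM and XY at 445.2 to 510.0 CPM. At 24 h and 72 h the difference was small, beyond the spread of the libraries and not a call. At 0 h edgeR's test did not separate it from that spread (adjusted p = 0.225), although the libraries did not overlap.

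Plagl1, a zinc finger transcription factor that restrains proliferation (chr10:12936248-13007438, plus strand, protein coding), was lower in XX at every time. At 0 h the XX libraries stood at 35.5, 31.8, 24.8 and 34.3 CPM and the XY libraries at 60.01, 47.2, 73.6 and 55.7 CPM. At 72 h with DMSO the values were 58.7, 50.8, 66.2 and 76.2 CPM in XX against 177.9, 142.7, 143.1 and 162.8 CPM in XY. XX and XY did not overlap at any time. The log2 fold changes were -0.88 ± 0.17, -1.19 ± 0.15 and -1.31 ± 0.14 at 0 h, 24 h and 72 h, with edgeR adjusted p-values of 3.09e-05, 2.70e-09 and 9.70e-11.

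H19, a non-coding RNA that shares its enhancers with Igf2 (chr7:142129262-142133957, minus strand), was the only one of the 10 called in the test of how the XX-XY difference changed between 0 h and 24 h. At 0 h it stood at 1912.1, 2150.2, 2622.4 and 1992.9 CPM in XX and at 1120.7, 1131.7, 1174.6 and 1127.4 CPM in XY, with no overlap (0.93 ± 0.12, edgeR adjusted p = 4.62e-09). At 24 h the groups overlapped, at 1259.5 to 1831.7 CPM in XX and 1011.6 to 1378.8 CPM in XY (0.32 ± 0.12, edgeR adjusted p = 0.0299, and 0.20 with the depth term), and at 72 h they lay at 1079.0 to 1309.4 and 1186.0 to 1460.6 CPM (-0.07 ± 0.12, edgeR adjusted p = 0.716). The difference between the sexes in the change from 0 h to 24 h was -0.61 ± 0.16 (edgeR adjusted p = 0.0125), and -0.72 with the depth term. It fell under the fold threshold without any of 4 of the 16 libraries: -0.51 without XX 0 h F4, -0.54 without XX 24 h F5, -0.56 without XX 24 h F9 and -0.54 without XY 24 h M5. In that test 1 of the 10 genes was called against a background of 6.20%, and the corresponding test from 24 h to 72 h, which crosses the library sets, called 0 against a background of 2.04%. Of the 10 genes 2 had an unadjusted p under 0.05 in the latter, H19 and Grb10, and DESeq2 called 0 as well.

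Igf2r, the receptor that takes IGF2 to the lysosome (chr17:12901293-12988614, minus strand, protein coding), showed no call in any of the 14 comparisons. Its log2 fold change of XX over XY was 0.04, -0.11 and -0.18 at the 3 times, and the interval at 0 h ran from -0.22 to 0.30. The libraries of XX and XY overlapped at all 3 times.

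Meg3, a non-coding RNA of the Dlk1 domain that is expressed from the other parental copy than Dlk1 (chr12:109506877-109538165, plus strand), was lower in XX at every time. At 0 h it stood at 231.1, 237.2, 249.5 and 269.5 CPM in XX and at 379.1, 348.8, 397.3 and 359.6 CPM in XY. At 72 h with DMSO it stood at 320.5, 308.3, 293.3 and 428.6 CPM in XX and at 800.7, 794.8, 807.4 and 699.6 CPM in XY. XX and XY did not overlap at any of the 3 times. The log2 fold change was -0.59 ± 0.13 at 0 h, -1.15 ± 0.13 at 24 h and -1.20 ± 0.13 at 72 h, with edgeR adjusted p-values of 0.00031, 8.31e-11 and 3.32e-11, and the 24 h value was -1.24 with the depth term. The 0 h call stood at the fold threshold and was lost without XX library F2 (-0.56), XX library F3 (-0.57) or XY library M5 (-0.57). The sex difference of the change from 0 h to 24 h was -0.57 ± 0.18 (edgeR adjusted p = 0.0422), under 1.5-fold, and was called at -0.60 without XX 0 h F2, -0.60 without XY 0 h M5, -0.69 without XX 24 h F4, -0.60 without XX 24 h F6, -0.72 without XY 24 h M4 and at -0.66 with the depth term.

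Cdkn1c, an inhibitor of cyclin-dependent kinases that restrains foetal growth (chr7:143012069-143014806, minus strand, protein coding), had the widest sex difference of the 10 at every time. At 0 h the XX libraries stood at 2131.6, 2271.3, 2721.5 and 1840.2 CPM and the XY libraries at 640.6, 534.8, 483.8 and 544.8 CPM. At 24 h with DMSO the values were 1518.9, 1211.7, 1395.1 and 1450.8 CPM in XX and 471.3, 382.8, 477.2 and 619.0 CPM in XY, and at 72 h with DMSO 1123.1, 1517.3, 1070.1 and 1138.2 CPM in XX and 324.2, 329.1, 487.7 and 390.7 CPM in XY. Every XX library lay above every XY library of its time, and also above every XY library of any other time or treatment. The fold change was 4.07 at 0 h, 2.86 at 24 h and 3.17 at 72 h (log2 2.02 ± 0.13, 1.52 ± 0.13 and 1.66 ± 0.13, edgeR adjusted p = 1.82e-18, 2.82e-14 and 2.83e-15), and the 24 h value with the depth term was 1.41. The change of this difference from 0 h to 24 h was -0.51 ± 0.18 (edgeR adjusted p = 0.0822). It was called at -0.59 without XX 0 h F5, -0.59 without XY 0 h M2, -0.61 without XY 24 h M3 and at -0.60 with the depth term.

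Grb10, an adaptor that dampens signalling of the insulin and IGF1 receptors (chr11:11880498-11988683, minus strand, protein coding), was lower in XX with a difference that was called at 72 h. There it stood at 157.0, 141.8, 184.2 and 151.9 CPM in XX and at 318.5, 274.9, 316.7 and 399.3 CPM in XY, with no overlap (-1.04 ± 0.10, edgeR adjusted p = 6.90e-12). The differences at 0 h and 24 h were -0.35 ± 0.10 and -0.55 ± 0.10 (edgeR adjusted p = 0.00925 and 1.77e-05), under 1.5-fold, and the libraries did not overlap at either time. The 24 h difference was called without XX library F5 (-0.61) or XY library M5 (-0.59). The further change from 24 h to 72 h, which crosses the library sets, was -0.49 ± 0.14 (edgeR adjusted p = 0.0611).

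Markers of the supporting cells, which differ by sex, and of other cell types moved with these differences. Of 8 Sertoli markers all 8 were called lower in XX at each time, and of 7 pre-granulosa markers 7, 7 and 6 were called higher. The summed level of 6 interstitial progenitor markers ran from 761.0 to 872.1 CPM in XX and 1258.2 to 1515.5 CPM in XY at 0 h, from 617.9 to 819.1 and 1690.3 to 1976.6 CPM at 24 h with DMSO and from 821.2 to 1053.1 and 1901.8 to 2436.7 CPM at 72 h with DMSO. Of these 6 progenitor genes, 4, 6 and 5 were called lower in XX at the 3 times and none higher. Of 6 pericyte and smooth muscle markers 3, 4 and 4 were called lower in XX and 2, 1 and 1 higher, and of 7 endothelial markers 4, 6 and 0 were called lower. Of 9 erythroid markers 2, 8 and 3 were called lower, with sums of 974.3 to 2224.9 CPM in XX and 2754.4 to 8080.8 CPM in XY at 24 h. All 4 tested markers of duct epithelium were called higher in XX at 24 h and at 72 h. Of 4 tested foetal Leydig markers 3, 3 and 2 were called lower in XX and 0, 0 and 1 higher. The remaining Leydig marker, Insl3, did not pass the filter and was at 0 in all 12 XX libraries. The sums of all 5 overlapped at 72 h with DMSO, at 485.9 to 601.2 CPM in XX and 394.8 to 599.9 CPM in XY. Of 5 tested germ cell markers 4, 0 and 2 were called lower in XX at the 3 times and 0, 2 and 0 higher. The sums of all 7 germ cell markers at 0 h were 56.6 to 76.9 CPM in XX and 153.9 to 238 CPM in XY. At 24 h and 72 h with DMSO those sums overlapped. The part of any of these cell types in the differences of Dlk1, Meg3, Plagl1 and Grb10, which were lower in XX, or of Cdkn1c and Peg3, which were higher, was not tested.

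The first day of culture changed few of these genes. In XY, 3 of the 10 were called from 0 h to 24 h with DMSO, all of them higher (background 14.4%, median log2 fold change 0.19 against 0.03 over all genes). Dlk1 rose from 1.15 ± 0.77 to 4.73 ± 0.81 CPM with no overlap (2.06 ± 0.51, edgeR adjusted p = 0.00191). Meg3 rose from 371.2 ± 21.4 to 575.6 ± 108 CPM, also with no overlap (0.63 ± 0.13, edgeR adjusted p = 0.000117, and 0.84 with the depth term), and missed the fold threshold at 0.56 without XY 24 h library M5. Plagl1 rose from 59.1 ± 11.02 to 88.8 ± 11.9 CPM (0.59 ± 0.15, edgeR adjusted p = 0.00199), and missed the fold threshold at 0.49 without XY 0 h library M3, 0.56 without XY 0 h library M6, 0.49 without XY 24 h library M3 and 0.52 with the depth term. In XX, 1 of the 10 was called (background 7.73%): Cdkn1c fell from 2241.1 ± 367 to 1394.1 ± 132 CPM with no overlap (-0.68 ± 0.13, edgeR adjusted p = 7.47e-05, and -0.54 with the depth term, under the fold threshold). H19 in XX differed by -0.53 ± 0.12 (edgeR adjusted p = 0.000767), and was called at -0.59 without XX 0 h library F2 and -0.65 without XX 24 h library F6. The summed level of 9 erythroid markers ran from 8927.4 to 19347.2 CPM at 0 h and from 974.3 to 8080.8 CPM at 24 h with DMSO. In XY, 6 of 8 Sertoli markers were called lower, with sums of 1585.7 to 1693.7 CPM at 0 h and 764.9 to 1226.1 CPM at 24 h, and 5 of 6 pericyte and smooth muscle markers were called higher, with sums of 233.8 to 285.7 and 625.4 to 739.7 CPM. The part of these cell types in the changes was not tested.

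Both inhibitors were compared with the same DMSO libraries of their time, so the differences of FGFRi and MEKi from DMSO are not independent of each other and are set side by side. Cdkn1c was the one member called with an inhibitor. With MEKi, 1 of the 10 genes was called at 24 h (background 3.27%, median log2 fold change -0.03 against -0.01 over all genes) and 1 at 72 h (background 6.47%, median 0.04 against 0.00), both times Cdkn1c, higher. With FGFRi at 72 h, 0 of the 10 were called by edgeR's quasi-likelihood test (background 1.80%, median -0.24 against 0.00), where 4 had an unadjusted p under 0.05, and DESeq2 also called 0.

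**Figure D4:**
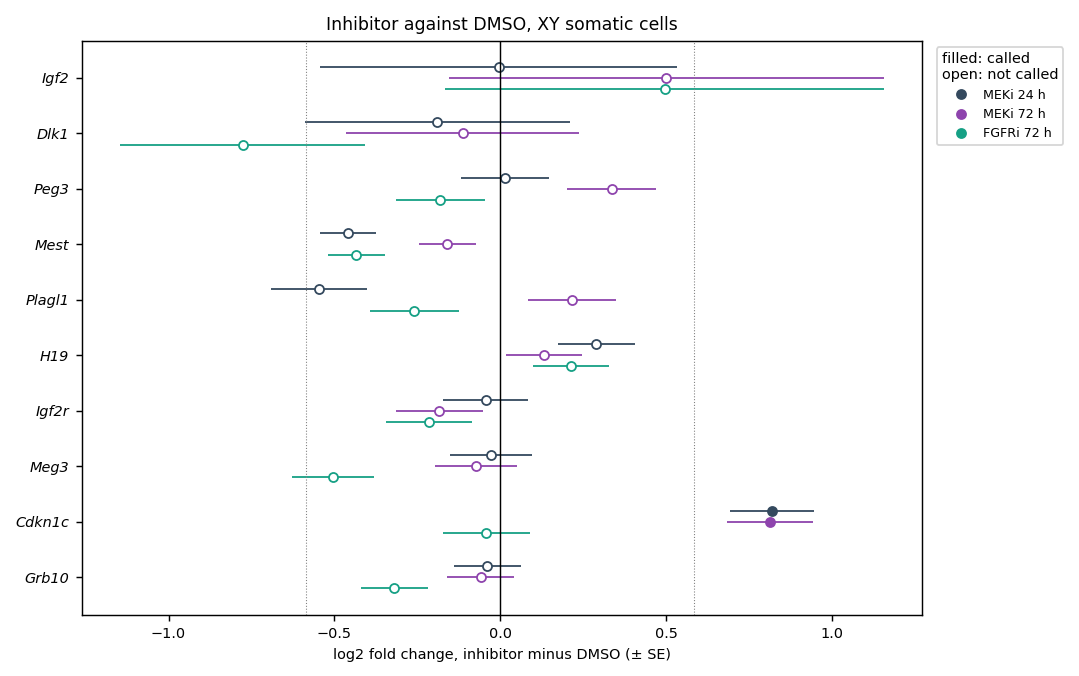
Log2 fold change of inhibitor over DMSO in XY cells (horizontal axis, bars ± SE) for the 10 genes with MEKi at 24 h, MEKi at 72 h and FGFRi at 72 h, filled where called and open where not, with dotted lines at a fold change of 1.5. Cdkn1c with MEKi holds the 2 filled points, at 0.82 and 0.81, beside -0.04 for FGFRi at 72 h.

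At 24 h Cdkn1c stood at 913.0, 958.5, 736.8 and 832.8 CPM with MEKi and at 471.3, 382.8, 477.2 and 619.0 CPM with DMSO. At 72 h it stood at 755.0, 637.8, 656.2 and 641.7 CPM with MEKi, at 377.7, 367.8, 317.2 and 424.8 CPM with FGFRi and at 324.2, 329.1, 487.7 and 390.7 CPM with DMSO. Every MEKi library lay above every DMSO library of its time, while FGFRi and DMSO overlapped at 72 h. The MEKi difference was 0.82 ± 0.13 at 24 h and 0.81 ± 0.13 at 72 h (edgeR adjusted p = 8.99e-06 and 1.29e-05), a fold change of 1.77 and 1.76, and remained under the level of XX cells at both times. With the depth term the 24 h difference was 0.57 (edgeR adjusted p = 0.00127), just under the fold threshold, and the 72 h difference stayed called. When the fold threshold entered the test, edgeR's glmTreat called neither (adjusted p = 0.452 at 24 h and 0.415 at 72 h). Nor did limma's voom with treat. The FGFRi difference at 72 h was -0.04 with a 95% interval from -0.30 to 0.21, which does not reach 1.5-fold in either direction. MEKi against FGFRi at 72 h, at the same dose and time, called 1 of the 10 (background 6.43%): Cdkn1c, at 0.86 ± 0.13 (edgeR adjusted p = 3.67e-06).

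The other 9 genes moved less with MEKi. At 24 h Mest stood at 512.5, 486.2, 505.2 and 438.5 CPM with MEKi and at 715.9, 616.9, 636.5 and 702.3 CPM with DMSO, with no overlap but under 1.5-fold (-0.46 ± 0.08, edgeR adjusted p = 0.000156). Plagl1 at 24 h stood at 56.2, 51.2, 72.6 and 61.1 CPM with MEKi and at 78.8, 105.9, 86.4 and 84.0 CPM with DMSO, again with no overlap (-0.55 ± 0.14, edgeR adjusted p = 0.0149), and was called without XY 24 h DMSO library M2 (-0.60) or MEKi library M4 (-0.66). At 72 h the Plagl1 difference was 0.22 ± 0.13 (edgeR adjusted p = 0.301), with MEKi at 146.9 to 228.9 CPM and DMSO at 142.7 to 177.9 CPM. The change of the MEKi difference from 24 h to 72 h was called for Plagl1, the 1 of the 10 genes in that test (background 1.41%), at 0.76 ± 0.20 (edgeR adjusted p = 0.032). It was not called without any of 8 of its 16 libraries (adjusted p up to 0.0988, at 0.64 without XY 72 h MEKi library M2) or with the depth term, and it crosses the library sets. Those 8 were M3 of XY 24 h DMSO (0.67), M1, M2 and M6 of XY 24 h MEKi (0.73, 0.70 and 0.76), M4 and M5 of XY 72 h DMSO (0.72 and 0.72) and M2 and M5 of XY 72 h MEKi (0.64 and 0.74). Meg3, Igf2r, Grb10, Dlk1 and Igf2 differed from DMSO by -0.19 to 0.50 on the log2 scale over both times, with edgeR adjusted p-values of 0.382 or more. H19 and Peg3 lay at 0.29 and 0.02 at 24 h and at 0.13 and 0.34 at 72 h, with edgeR adjusted p-values of 0.161, 0.977, 0.494 and 0.0914. With the depth term the 24 h differences of H19, Peg3 and Meg3 were 0.01, -0.23 and -0.24. That term moved the change of the Peg3 difference from 24 h to 72 h from 0.32 to 0.62, which was then called (edgeR adjusted p = 0.0449).

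With FGFRi at 72 h, 8 of the 10 fold changes lay below 0, among genes expressed from either parental copy, and none reached a call. Meg3 stood at 659.3, 536.4, 441.1 and 555.2 CPM with FGFRi and at 800.7, 794.8, 807.4 and 699.6 CPM with DMSO, with no overlap (-0.50 ± 0.12, edgeR adjusted p = 0.0157), under 1.5-fold, and was called at -0.60 without FGFRi library M2. Mest stood at 346.0, 395.0, 307.2 and 373.2 CPM with FGFRi and at 445.2, 510.0, 507.6 and 457.8 CPM with DMSO, with no overlap (-0.43 ± 0.09, edgeR adjusted p = 0.00193). Beside these, Meg3 and Mest with MEKi at 72 h were at -0.07 and -0.16. Dlk1 with FGFRi lay at -0.78 ± 0.37 (edgeR adjusted p = 0.312), with counts of 9, 10, 15 and 19 against 35, 19, 14 and 22 that overlapped. Grb10 lay at -0.32 ± 0.10 (edgeR adjusted p = 0.0761), and Peg3, Plagl1, Igf2r, H19 and Igf2 at -0.18, -0.26, -0.21, 0.21 and 0.50, each with an edgeR adjusted p of 0.373 or more. In the direct comparison at 72 h, Peg3, Plagl1, Meg3 and Mest were higher with MEKi than with FGFRi by 0.52, 0.48, 0.43 and 0.27 on the log2 scale, with edgeR adjusted p-values of 0.00716, 0.0144, 0.0172 and 0.0288, all under 1.5-fold.

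FGFRi at 24 h can be set only against DMSO libraries of the other set, so inhibitor and set cannot be told apart. There 1 of the 10 genes was called (background 3.27%): Cdkn1c, at 712.3, 874.6, 828.8 and 763.5 CPM with FGFRi, all above the DMSO libraries (0.71 ± 0.13, edgeR adjusted p = 0.000222), and at 0.44 with the depth term, no longer called. H19 differed by 0.53 ± 0.12 (edgeR adjusted p = 0.00214), and was called at 0.61 without DMSO library M5, while with the depth term it was at 0.23 (edgeR adjusted p = 0.166). Within FGFRi, where both times lie in one set, 3 of the 10 genes were called between 24 h and 72 h (background 6.70%). Cdkn1c fell from 794.8 ± 71.5 to 371.9 ± 44.1 CPM (-1.10 ± 0.13, edgeR adjusted p = 1.01e-08) and Mest from 564.6 ± 13.6 to 355.4 ± 37.9 CPM (-0.67 ± 0.09, edgeR adjusted p = 6.33e-08), both with no overlap. Plagl1 rose from 86.7 ± 10.6 to 131.8 ± 22.1 CPM (0.60 ± 0.14, edgeR adjusted p = 0.00244), a call lost without FGFRi library M5 of 24 h (0.55), M2 of 72 h (0.51) or M4 of 72 h (0.57).

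Levels of other cell types moved with the inhibitors. The summed level of 7 endothelial markers ran from 52.9 to 78.4 CPM with MEKi and from 193.6 to 275.6 CPM with DMSO at 24 h, and from 45.8 to 65.4 and 76.6 to 139.6 CPM at 72 h. At 72 h 8 Sertoli markers summed to 481.5 to 661.2 CPM with MEKi and 868.5 to 1486.1 CPM with FGFRi. Both overlapped DMSO, at 635.4 to 933 CPM, and 4 of the 8 were called lower with MEKi and 0 with FGFRi. The sum of 5 foetal Leydig markers at 72 h was 815.8 to 1284.2 CPM with MEKi and 394.8 to 599.9 CPM with DMSO. With FGFRi it was 524 to 966.6 CPM, which overlapped DMSO. Macrophage markers summed to 15.1 to 28.8 CPM with FGFRi, 30.2 to 38.4 CPM with MEKi and 45.7 to 138.2 CPM with DMSO at 72 h, and of the 7 tested 6 were called lower with FGFRi and 5 with MEKi. Of 6 pericyte and smooth muscle markers 2 were called higher and 4 lower with FGFRi at 72 h, and 2 higher and 3 lower with MEKi. Germ cell markers, which the sort should leave low, summed to 250.4 to 461.8 CPM with MEKi and 95.9 to 139.6 CPM with DMSO at 24 h and overlapped at 72 h, at 16.2 to 35.5 and 20.9 to 36.8 CPM. Duct epithelium markers summed to 166.8 to 249.1 CPM with MEKi and 105.9 to 126.2 CPM with DMSO at 24 h. At 72 h they summed to 149.9 to 190.5 CPM with FGFRi, 100.8 to 154.5 CPM with MEKi and 49.5 to 139.7 CPM with DMSO. Of 4 tested, 2 were called higher with MEKi at 24 h, 1 with MEKi at 72 h and 2 with FGFRi at 72 h. Of 7 pre-granulosa markers 2 were called higher with MEKi at 24 h and 0 at 72 h. With FGFRi at 72 h 1 was called higher and 1 lower. The part of these cell types in the differences of Cdkn1c, Mest, Plagl1 and Meg3 was not tested.

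Ordered by group mean over both library sets, which cannot be told apart from the groups here, the genes took different courses. Cdkn1c ran from XX 0 h (2241.1 CPM) through XX 24 h and XX 72 h to the XY groups and ended at XY 72 h FGFRi (371.9 CPM). H19 was highest in XX 0 h (2169.4 CPM), with no overlap with the next group, XY 24 h FGFRi (1738.7 CPM), and from the second group down each group overlapped the next. Igf2r was highest in XY 24 h FGFRi (201.7 CPM), clear of the next group, and overlapped from there down to XY 0 h (147.7 CPM). Dlk1 was highest in XY 72 h DMSO (9.64 CPM) and each neighbour in its order overlapped the next, as did each neighbour of Igf2 from XX 0 h (6.97 CPM) to XX 72 h DMSO (1.27 CPM).

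Over the 40 libraries, log2 levels of Meg3 and Plagl1 had a Pearson r of 0.88, Peg3 and Cdkn1c 0.87, Meg3 and Grb10 0.81, Dlk1 and Plagl1 0.80, Dlk1 and Meg3 0.77 and Mest and Plagl1 -0.80, values that describe these 40 libraries, which share groups, library sets and depth. H19 and Igf2, the neighbours on chromosome 7, had an r of 0.20. Among the tested genes of at least 10 CPM, the 3 with the highest r to Meg3 were Tshz2 (0.96), Rian (0.95) and B130024G19Rik (0.94), of which Rian is a non-coding RNA of the Meg3 domain. The 3 nearest to Dlk1 were Aspn (0.88), Dcn (0.87) and Rspo3 (0.87), all of them genes of extracellular matrix or secreted signals, and those nearest to H19 were Cavin2 (0.78), Rasl11a (0.72) and Podxl (0.72). Those nearest to Igf2 were Gm5611, Gm14681 and mt-Atp8 at 0.59 to 0.63, the lowest of the 4 genes searched.

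The ratio of the paired neighbours within a library, H19 over Igf2 and Meg3 over Dlk1, does not depend on scaling. It can still follow depth, since the slopes on library total were 0.68 for H19 against 1.49 for Igf2 and 0.77 for Meg3 against 1.24 for Dlk1. In 22 comparisons by two-sided exact permutation tests of 4 against 4 libraries, where 0.0286 is the smallest p possible, no adjusted p was under 0.971. With 22 tests adjusted together, a single comparison at that smallest p could not have reached an adjusted p under 0.05. The adjusted values therefore cannot show that the ratios were unchanged. The smallest unadjusted p was 0.0857, for Meg3 over Dlk1 from 0 h to 24 h in XY, where the log2 ratio (pseudocount 0.5) went from 8.20 ± 0.78 to 6.87 ± 0.51. XY 24 h DMSO was also the deepest group, and the part of depth in that fall was not tested.

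Neighbours in the imprinted domains were taken by position, within 1 Mb of one of the 10 genes, from a list of 68 other imprinted genes, a choice made after values were seen. Of 29 such neighbours 20 were tested. At 0 h 3 were higher and 2 lower in XX than in XY, at 24 h 4 and 4, and at 72 h 4 and 3, beside 17.3%, 19.6% and 20.3% of all tested genes called in either direction. In the Dlk1-Meg3 domain, the non-coding RNAs Rian and Mirg were lower in XX at all 3 times, like Meg3: Rian by -0.80, -1.36 and -1.20 on the log2 scale and Mirg by -1.25, -1.50 and -1.47. With FGFRi at 72 h Mirg was called lower (27.01 ± 8.66 against 44.5 ± 2.62 CPM, log2 fold change -0.73, edgeR adjusted p = 0.0346), and Rian stood at -0.53 (edgeR adjusted p = 0.020). In the Peg3 domain, Usp29, whose start lies 0.109 kb from Peg3, was higher in XX by 0.87, 1.03 and 0.80, all called, and Zim1 by 1.09 and 0.92 at 0 h and 24 h, both called, and by 0.40 at 72 h, not called.

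In the Cdkn1c domain, Kcnq1, a potassium channel gene 31.3 kb away, stood at 7.74 ± 3.37, 20.1 ± 4.65 and 12.9 ± 1.84 CPM in XX with a mean under 1 CPM in XY at the 3 times, called each time. Phlda2, a growth-restraining gene of the same domain, stood at 10.5 ± 4.02 CPM in XX and 0.33 ± 0.32 CPM in XY at 24 h (log2 fold change 4.72 ± 0.68, edgeR adjusted p = 1.93e-07). Kcnq1ot1, the paternally expressed non-coding RNA that silences this domain in cis, differed between XX and XY by under 1.5-fold (0.50, 0.47 and -0.05). With MEKi at 72 h Kcnq1ot1 was called lower, at 168.1 ± 24.3 CPM against 265.3 ± 30.7 CPM with DMSO (-0.66 ± 0.16, edgeR adjusted p = 0.00544), and at 24 h it stood at 0.09. Next to Igf2r, its antisense RNA Airn was lower in XX at 24 h and 72 h (-0.65 and -0.74, edgeR adjusted p = 0.0176 and 0.011). Whether the counting used strand is not given in the sources used here, so reads of Airn and Igf2r may not be separate.

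The wider lists give the setting. Of the 68 other imprinted genes 49 were tested, and 10, 14 and 15 of them were called between XX and XY at 0 h, 24 h and 72 h (20.4%, 28.6% and 30.6%, against 17.3%, 19.6% and 20.3% of all tested genes). With MEKi 1 and 2 were called at 24 h and 72 h (2.04% and 4.08%, against 3.27% and 6.47%) and with FGFRi 1 at 72 h (2.04%, against 1.80%), shares near or below those of all genes. Of the genes called higher in XX, Inpp5f stood at 84.1 ± 5.74 against 26.2 ± 5.26 CPM and Peg10 at 77.8 ± 5.58 against 33.8 ± 1.11 CPM at 0 h. Of those called lower in XX, Asb4 stood at 32.1 ± 8.90 against 112 ± 18.7 CPM at 24 h and Zdbf2 at 14.4 ± 4.78 against 76.6 ± 20.0 CPM at 72 h.

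The IGF pathway, in which IGF1 and IGF2 act through a shared receptor and are held by binding proteins, was followed in 18 genes, Igf2 and Igf2r not counted. Of these 7, 8 and 8 were called between XX and XY at the 3 times (38.9%, 44.4% and 44.4%, against 17.3%, 19.6% and 20.3% of all tested genes). Igf1, the other ligand, stood at 141.7 ± 17.6 CPM in XX and 49.3 ± 3.38 CPM in XY at 0 h (log2 fold change 1.52 ± 0.14), and the binding protein Igfbp2 at 198 ± 17.4 against 46.6 ± 7.31 CPM. Igfbp7 was lower in XX at every time, by -3.10, -3.23 and -1.73, and Pappa, a protease that frees IGF from its binding proteins, by -1.47 at 24 h and -2.41 at 72 h. With MEKi 3 of the 18 were called at each time (16.7%, against 3.27% and 6.47% of all tested genes): Irs2, which relays the receptor's signal, was lower at both (-1.15 and -1.40), Igfbp3 lower at 24 h (-1.52), Pappa lower at 72 h (-1.20) and Igfbp6 higher at 72 h (0.71). With FGFRi at 72 h edgeR called 0 of the 18, with 7 at an unadjusted p under 0.05, and DESeq2 called 1.

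Of the genes that set or keep imprints, such as DNA methyltransferases and their partners, 17 were tested. Between XX and XY 2, 1 and 2 were called at the 3 times, shares of 11.8%, 5.88% and 11.8% that lay under the 17.3%, 19.6% and 20.3% of all tested genes. All were lower in XX. Dnmt1, which copies methylation after replication, stood at 102.3 ± 2.40 against 167.5 ± 13.01 CPM at 0 h. Its partner Uhrf1 stood at 75.3 ± 8.55 against 137.3 ± 14.8 CPM at 72 h. The other call at both of these times was Dppa3, also a germ cell gene, at log2 fold changes of -1.43 and -1.78. The part of residual germ cells in these differences was not tested. With MEKi at 24 h the only call was again Dppa3, at 156.2 ± 43.8 against 60.5 ± 9.88 CPM, beside the higher germ cell sums given above. At 72 h edgeR called 0 with MEKi (8 at an unadjusted p under 0.05) and 0 with FGFRi (1 at an unadjusted p under 0.05), and DESeq2 also called 0 in both.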

How the data were processed

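The authors sequenced 3′ ends of RNA from sorted somatic cells and deposited counts per gene after removal of duplicate UMIs (scPipe and Rsubread, GRCm39, per their methods, with limma and edgeR named in the labels). The annotation release and the strand setting of the counting are not given in the sources used here. All 40 libraries were used, including XY 24 h MEKi M2, which the study's description of the pool does not list. Symbols and positions came from GENCODE M39, which matched 40391 of 42422 identifiers. Library totals of 1380707 to 4836550 counts limit the precision for Igf2 and Dlk1.

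Counts were filtered with filterByExpr, scaled by TMM and fitted in 1 model of 10 group means with edgeR 4.0.16 (R 4.3.3), quasi-likelihood F-test, Benjamini-Hochberg over 15125 genes, called at an adjusted p under 0.05 and at least 1.5-fold. This was tested on simulated counts. limma 3.58.1 and DESeq2 1.42.0 served as alternatives, with other scalings, filters, a correction for UMI collisions, a replicate block, a depth term added after the data were seen and each library left out in turn. All 10 genes were named, and from the lists of other imprinted genes, the IGF pathway and the imprinting machinery up to 2 called genes per direction and comparison of at least 5 CPM. The genes and lists were chosen with earlier results of these data known. Domain neighbours were added by position after values were seen.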

Additional observations from a re-analysis of the deposited data

Results flagged for a closer look

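Single libraries stood apart from the other 3 of their group in 7 of 100 sets of 4 values (10 genes in 10 groups) by Dixon's ratio of the gap to the range, a test that chance alone trips in about 1 of 20. Dlk1 in XY 72 h MEKi library M2 stood at 14.2 CPM against 7.22 to 7.55 CPM (ratio 0.953). Meg3 in XY 72 h DMSO library M6 stood at 699.6 CPM against 794.8 to 807.4 CPM (0.883). Peg3 in XY 72 h FGFRi library M5 stood at 543.8 CPM against 784.2 to 811.9 CPM (0.897). Mest in XX 24 h DMSO library F9 stood at 953.1 CPM against 828.3 to 849.6 CPM (0.8293). Cdkn1c in XX 72 h DMSO library F4 stood at 1517.3 CPM against 1070.1 to 1138.2 CPM (0.848), and in XY 72 h MEKi library M2 at 755.0 CPM against 637.8 to 656.2 CPM (0.843). Grb10 in XX 24 h DMSO library F5 stood at 205.2 CPM against 176.7 to 180.1 CPM (0.881).

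The change from 0 h to 24 h of H19 differed between XX and XY by -0.61 on the log2 scale, and the MEKi difference of Plagl1 changed by 0.76 from 24 h to 72 h, both by edgeR's test of the difference itself.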

How the results depend on the processing

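No called difference changed sign under the 11 alternative settings. Cdkn1c, Meg3, Plagl1 and Grb10 differences between XX and XY at 72 h, those of Cdkn1c, Meg3 and Plagl1 at 24 h and of Cdkn1c and H19 at 0 h, and the fall of Cdkn1c from 24 h to 72 h with FGFRi, kept their call under all 11 and with each library left out. The replicate block, 1 of the 11, rests on XX library F4 alone for XX against XY at 72 h. When the 1.5-fold threshold entered the test itself (glmTreat), 2 genes were called between XX and XY at 0 h, 3 at 24 h, 1 from 0 h to 24 h in XY and 1 from 24 h to 72 h with FGFRi, and 0 in XX from 0 h to 24 h, with MEKi at 24 h or 72 h, with FGFRi at 24 h, for MEKi against FGFRi and in the changes of the sex difference from 0 h to 24 h and of the MEKi difference. limma's voom with quality weights and treat gave 2, 3, 0, 1 and otherwise 0 for those same comparisons. These 2 settings also cut the calls over all genes by over 1.5 times: from 2622 to 1388 and 936 between XX and XY at 0 h, from 2961 to 1582 and 1156 at 24 h, from 3067 to 1490 and 1087 at 72 h, from 979 to 132 and 75 with MEKi at 72 h, from 273 to 5 and 0 with FGFRi at 72 h, from 2178 to 688 and 421 in XY and 1169 to 356 and 214 in XX from 0 h to 24 h, from 495 to 157 and 88 with MEKi at 24 h, from 495 to 27 and 16 with FGFRi at 24 h, from 972 to 208 and 90 for MEKi against FGFRi, from 1014 to 275 and 160 from 24 h to 72 h with FGFRi, and from 938 to 259 and 119, 309 to 55 and 22 and 213 to 8 and 1 in the changes of the sex difference to 24 h and to 72 h and of the MEKi difference. For that last change no filter gave 350 and the depth term 138, and with MEKi at 24 h the depth term gave 328. Scaling by total counts called 2 with MEKi at 24 h and 2 in the change of the sex difference from 0 h to 24 h, where both other filters also called 2. The depth term called 0 in XX from 0 h to 24 h, 0 with MEKi at 24 h, 0 with FGFRi at 24 h and 3 in that change. RLE scaling, DESeq2, the correction for UMI collisions and a fit of only the groups compared left the counts of the 10 genes and of all genes within 1.5 times. The UMI correction took 65536 distinct UMIs in each of 2 lanes. It could move counts of at most 9811 only slightly, so it was no test of the count ceiling. Of the other imprinted genes DESeq2 called 5 in place of 3 in the change of the sex difference from 24 h to 72 h, and of the IGF pathway 1 in place of 0 with FGFRi at 72 h.

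Without 1 library in turn, the genes called ranged from 4 to 5 between XX and XY at 0 h, 4 to 6 at 24 h and 6 to 6 at 72 h, 2 to 3 in XY and 1 to 2 in XX from 0 h to 24 h, 1 to 2 with MEKi at 24 h, 0 to 1 with FGFRi at 72 h, 1 to 2 with FGFRi at 24 h, 2 to 3 from 24 h to 72 h with FGFRi, 0 to 2 in the change of the sex difference from 0 h to 24 h and 0 to 1 in that of the MEKi difference.

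Groups share replicate numbers, and the labels do not say whether the numbers pair the samples. Over 26 pairs of the same number and sex the correlation of deviations from the group means ran from -0.156 to 0.116 (median 0.00307). Over the 294 other pairs it ran from -0.168 to 0.183 (median 0.000568). This covers no XX-XY pairs of a number and cannot decide whether samples shared a litter. A replicate block was set by number within each library set. It called 3 genes between XX and XY at 24 h. In the changes of the sex difference from 0 h to 24 h and of the MEKi difference it called 0. FGFRi at 24 h and its DMSO libraries lie in different sets and share no block, so this fit cannot give that comparison. The Dlk1 difference between XX and XY at 72 h was -0.49 with the block. That value rests on XX library F4 alone, since F11, F7 and F8 share their numbers with no other library of their set. Over all genes the block called 296 with MEKi at 24 h in place of 495 and 51 in the change of the MEKi difference in place of 213.

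Depth limits Igf2 and Dlk1, and the CPM of H19, Peg3, Cdkn1c and Meg3 was lower in deeper libraries. Why these settings moved calls was not tested.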
